A study of Mus musculus with 60 samples.

Results

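Cytochromes P450 of families 2 and 3 are haem enzymes of the endoplasmic reticulum that oxidise drugs, plant compounds, steroids and fatty acids, taking electrons from NADPH through the reductase Por. In mice the families have expanded into clusters of neighbouring, closely similar genes, and most members are known from hepatocytes, with a smaller set in the airway, gut and olfactory epithelium. Many members are induced through the nuclear receptors Nr1i2 (PXR) and Nr1i3 (CAR), whereas the classical aryl hydrocarbon receptor targets lie in family 1.

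The 50 genes described here were every gene of the array whose probe's RefSeq accession mapped to a symbol of the form Cyp2 or Cyp3a followed by a subfamily letter and a number, apart from Cyp2e1 and Cyp2f2, which mark liver zones and club cells. They came from 65 probes among 55681, and the brightest probe stood for each gene. Among them were 13 Cyp2c, 9 Cyp2d, 7 Cyp3a, 6 Cyp2j, 5 Cyp2b and 3 Cyp2a genes, and Cyp2ab1, Cyp2g1, Cyp2r1, Cyp2s1, Cyp2t4, Cyp2u1 and Cyp2w1. Cyp2a5, Cyp2c40, Cyp2c69 and Cyp2j12 were not represented under the rule and were not analysed here.

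Male Muta Mouse animals, which carry a lacZ reporter transgene and were about 10 weeks old, received benzo(ghi)perylene (BghiP), a polycyclic aromatic hydrocarbon, in olive oil by daily gavage for 28 days. Group D0 received the vehicle alone, and the treated groups received 6.25 (D1), 12.5 (D2) or 25 (D3) mg/kg-bw/day, with 5 mice per group. Lung, liver and forestomach were taken from the same 20 mice 72 h after the final dose, which gave 60 two-colour arrays. Tissue RNA was labelled with Cy5 and a universal reference RNA, pooled from mouse cell lines, with Cy3 on every array, with no dye swap. Values below are log2 ratios of Cy5 over Cy3 unless the Cy5 signal is named, and a difference was called at an adjusted p of at most 0.05 and a change of at least 1.5-fold. The filter for testing a gene in a tissue asked that 5 or more of the 20 arrays show its Cy5 signal well above background.

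The labelled tissues carried their own markers on every array. In liver 8 of 8 hepatocyte markers were well above background, in lung 6 of 6 alveolar type 2 markers, and in forestomach 7 or 8 of 8 squamous markers. Some arrays also carried markers of a second tissue. The lung array of D3 mouse 20 had a log2 summed Cy5 signal of hepatocyte markers of 15.1, against 10.2 to 11.0 on the other lung arrays, and the lung array of D0 mouse 1 had a squamous marker sum of 17.7 against 11.0 to 11.3. On forestomach arrays the hepatocyte sum reached 15.9 in D2 mouse 15, the alveolar type 2 sum reached 18.3 in D0 mouse 2 against at most 12.7 elsewhere, and the glandular stomach sum ran from 9.30 to 21.5. In bulk tissue, fewer cells of a type and less RNA per cell cannot be told apart.

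Of the 50 genes, 41 passed the filter in liver, 23 in forestomach and 20 in lung, and 43 passed in at least 1 tissue. In liver 38 were well above background on all 20 arrays, against 9 in lung and 5 in forestomach. The share of all probes well above background ran from 36.3% to 48.3% across liver arrays. It ran from 34.9% to 58.6% across lung and from 21.3% to 53.3% across forestomach arrays, which bears on these counts. The 9 lung genes were Cyp2a4, Cyp2b9, Cyp2b10, Cyp2c37, Cyp2d11, Cyp2j6, Cyp2j9, Cyp2r1 and Cyp2s1, and the 5 forestomach genes were Cyp2j6, Cyp2j8, Cyp2r1, Cyp2s1 and Cyp3a13. Cyp2a22, Cyp2ab1, Cyp2b13, Cyp2b19, Cyp2b23, Cyp2j11 and Cyp2w1 passed in no tissue. A gene that passed only through the tissue where it is bright had to differ between tissues, so the counts over the 43 genes describe them and support nothing further.

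In vehicle mice, 36 of the 43 genes were higher in liver than in lung and 2 were lower, with a median difference of 4.99, where the median of all 33255 probes tested was -0.06. Over all probes 19% were called higher and 25.4% lower, 44.4% in all. Against forestomach 36 were again higher in liver and 2 lower, with a median of 5.03 against -0.02 over all probes, of which 18.2% and 21% were called, 39.2% in all. Lung and forestomach differed in 12 of the 43, 4 higher in lung and 8 higher in forestomach, where 18.8% and 14.5% of all probes were called, 33.3% in all. Without the lung arrays of mice 1 and 20 and the forestomach arrays of mice 2 and 15, a choice made after seeing the data, the counts were 38, 37 and 12 against 38, 38 and 12 with them.

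**Figure D1:**
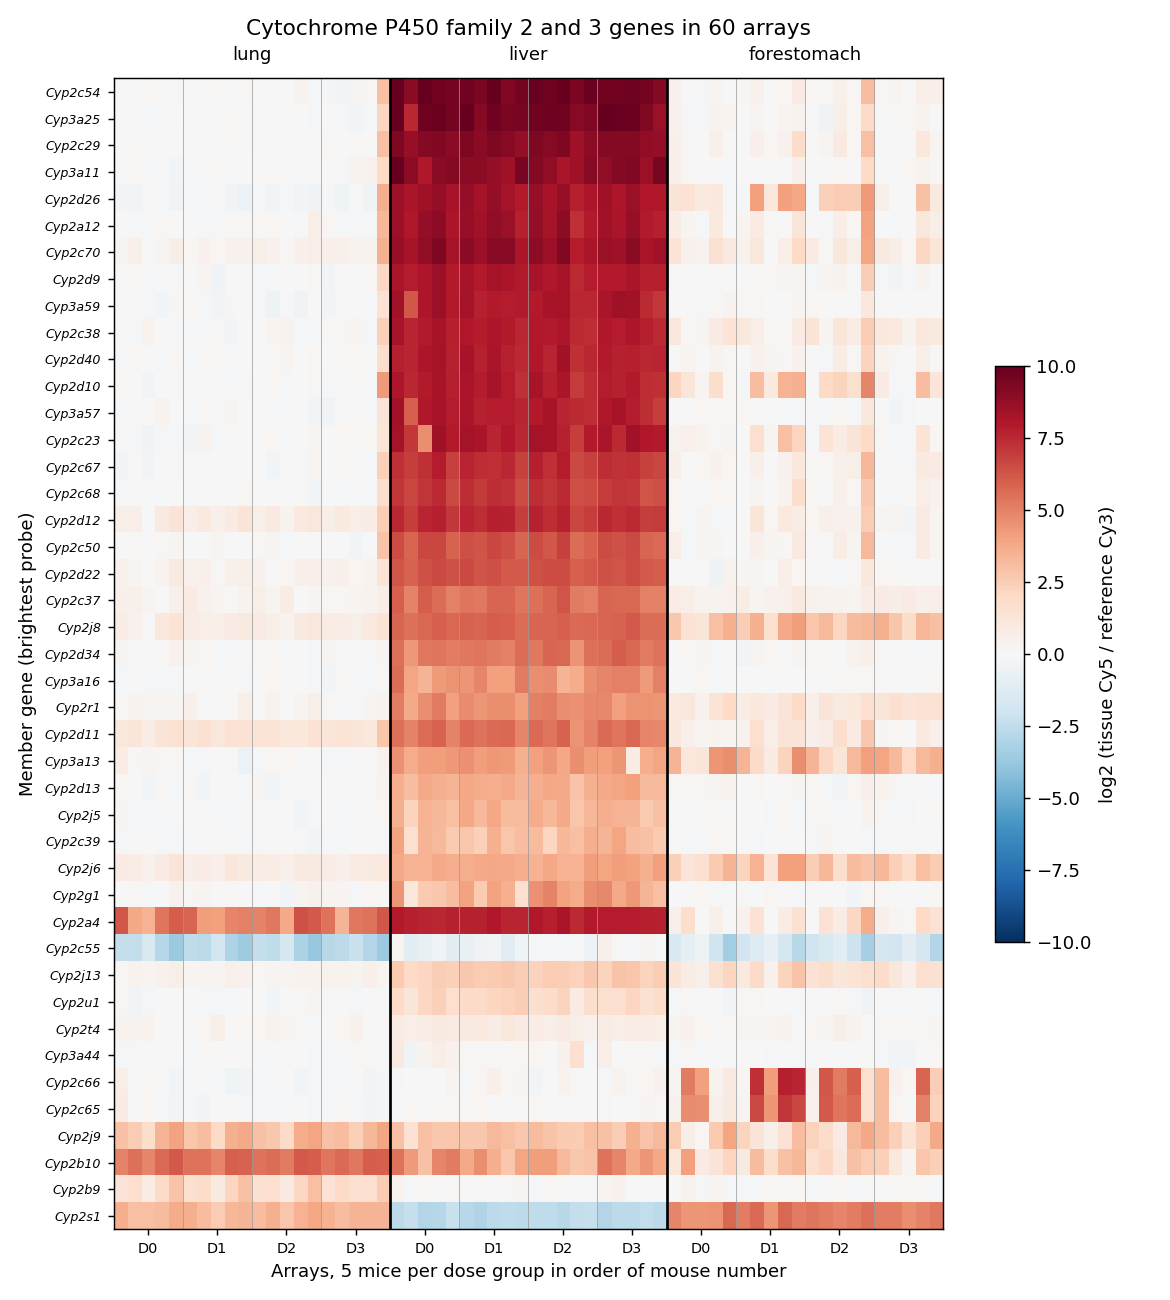
Log2 ratio of tissue Cy5 over reference Cy3 for the 43 genes tested in at least 1 tissue (rows, ordered by the liver minus lung difference) on all 60 arrays (columns, by tissue, dose group and mouse number). Liver forms the dark block, Cyp2s1 is the only row that is below 0 on every liver array, lung D3 mouse 20 and forestomach D2 mouse 15 stand out as single columns, and Cyp2c65 and Cyp2c66 are high on some forestomach arrays of each dose group.

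The liver genes with the largest differences belonged to the Cyp2c, Cyp3a, Cyp2d and Cyp2a subfamilies. Cyp2c54 gave 10.07, 9.01, 10.17, 9.66 and 9.60 in the 5 vehicle livers, and its probe was not well above background in any vehicle lung or forestomach. Its liver signal was therefore at least 579-fold that of lung and at least 540-fold that of forestomach. These folds set the Cy5 signal of the bright group against the lowest signal that is well above background on each array of the dim group. Cyp3a11, the main drug-oxidising Cyp3a enzyme of mouse liver and a standard Nr1i2 target, gave 9.92, 8.95, 8.00, 9.03 and 9.19 in liver. It was at least 241-fold above lung and at least 181-fold above forestomach, where it was not well above background in any vehicle mouse. Cyp2c29, induced through Nr1i3, ran from 8.69 to 9.32 in vehicle liver and was at least 676-fold above lung and at least 605-fold above forestomach. For Cyp2d10 and Cyp2d9, the latter a testosterone hydroxylase of male liver, the Cy5 bounds against lung were 2120-fold and 558-fold. Cyp2c70, which makes muricholic bile acids in mice, was measured on 4 of 5 vehicle lung arrays and was 8.37 ± 0.45 (SE) higher in liver (adjusted p = 4.86e-23), and 10.28 higher in Cy5 alone.

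Several other genes were higher in liver by smaller amounts. Cyp2r1, the microsomal vitamin D 25-hydroxylase, was detected in all 3 tissues of every vehicle mouse and was 4.30 ± 0.22 higher in liver than in lung and 3.39 ± 0.22 higher than in forestomach (adjusted p = 6.61e-24 and 1.5e-19). In Cy5 alone these differences were 3.25 and 2.49. Cyp2u1, a fatty acid hydroxylase, was at least 2.99-fold and Cyp2g1, best known from olfactory mucosa, at least 4.25-fold above lung. Of the Cyp2j genes, which oxidise arachidonic acid, Cyp2j5 was well above background in vehicle liver alone, at least 6.14-fold above lung. Cyp2j6 and Cyp2j8 were measured in all 3 tissues, Cyp2j8 on 4 of 5 vehicle lung arrays, and stood highest in liver, with differences from forestomach of 1.37 ± 0.33 and 3.37 ± 0.33 (adjusted p = 0.000302 and 4.15e-13). For Cyp2j9 no pair of tissues passed the test, with differences between -0.32 and 0.93, but with mouse as a block lung minus forestomach, 0.93, passed (adjusted p = 0.0483). The block also added Cyp2c55 for lung minus forestomach, at -0.88 (adjusted p = 0.00806), and Cyp2c66 for liver minus forestomach, at -2.10 (adjusted p = 0.0494), and removed Cyp2d11 for lung minus forestomach (adjusted p = 0.0547). Cyp2c55 was above background on 1 of 5 vehicle lung and 0 of 5 vehicle forestomach arrays, so its difference is between groups at or near background. Cyp2c66 was above background on 0 of 5 vehicle liver and 3 of 5 vehicle forestomach arrays, so its difference is taken against background in liver.

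Cyp2s1, an epithelial P450 that is known outside the liver, had the opposite pattern. Vehicle livers gave -2.61, -2.27, -2.95, -2.86 and -2.23, vehicle lungs gave 3.63, 3.01, 2.99, 3.14 and 3.70, and vehicle forestomachs gave 4.87, 4.41, 4.38, 4.53 and 5.73. The 3 tissues did not overlap, and the order was forestomach, lung, liver. The liver minus lung difference was -5.88 ± 0.21 and the lung minus forestomach difference -1.49 ± 0.21 (adjusted p = 1.01e-30 and 3.6e-08). Its Cy3 signal was between 10.0 and 10.1 in the 3 tissues, so the ratio and the Cy5 signal differed alike.

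Cyp2b10, Cyp2b9 and Cyp2a4 were higher in vehicle lung than in forestomach. Cyp2b10, the phenobarbital-inducible P450 and an Nr1i3 target, gave 4.98, 5.51, 4.89, 5.69 and 6.12 in vehicle lung and 1.16, 4.10, 0.81, 1.29 and 2.12 in vehicle forestomach. The groups did not overlap, and the difference was 3.54 ± 0.49 (adjusted p = 2.66e-08). In Cy5 alone it was 6.87, since the reference signal of this probe was also higher on lung arrays. The forestomach value of 4.10 belongs to mouse 2, whose array also carried alveolar type 2 markers. Cyp2b9 was above background on all vehicle lung arrays and on none of liver or forestomach, at least 2.46-fold and 2.53-fold higher in lung. Cyp2a4, a testosterone hydroxylase whose sequence is close to that of the unlisted Cyp2a5, so that its probe may take signal from both, was 4.45 ± 0.50 higher in lung than in forestomach, where 1 of 5 vehicle arrays was above background, and 2.69 ± 0.50 higher in liver than in lung (adjusted p = 7.78e-11 and 4.88e-06). In Cy5 alone these differences were 4.45 and 3.69. On the forestomach side the called genes were Cyp3a13, Cyp2c65, Cyp2j8, Cyp2s1, Cyp2j6, Cyp2r1, Cyp2j13 and Cyp2c38. In vehicle lung Cyp2c65 and Cyp2j13 were above background on 1 of 5 arrays and Cyp3a13 on 2 of 5, so their differences are taken mostly against background. Cyp2c65 passed the filter through forestomach alone. The Cyp2c65 call ended without mouse 2 (adjusted p = 0.208), without mouse 3 (0.184) and without the arrays with a second tissue's markers (0.134), and mice 2 and 3 are the vehicle mice with high glandular stomach sums. The Cyp2c38 call ended in Cy5 alone (0.0777) and without mouse 1, 4 or 5 (0.122, 0.0892 and 0.193). Cyp3a13, an intestinal and hepatic Cyp3a gene, was at -2.66 ± 0.56 for lung minus forestomach (adjusted p = 6.16e-05).

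The genes fall into chromosomal clusters, and neighbours differed in where they were bright. The promoter sequences below are those of genes with different tissue patterns: Cyp3a11 from the liver group, Cyp2b10 and its neighbour Cyp2s1, and Cyp2c55, Cyp2c65 and Cyp2c66, which follow each other on chromosome 19. Each is the 250 bases before the RefSeq gene start in build GRCm38.p6, read 5′ to 3′ on the gene's strand, with matches in capitals to TATAAA (the letters of a TATA box, which normally lies close to the start), CAAAGTCCA (an Hnf4a-type repeat), AGGTCA and AGTTCA (hexamers bound by nuclear receptors) or GCGTG (the aryl hydrocarbon receptor core), searched on both strands.
Cyp2c65 (chr19:39060756-39061005, plus strand): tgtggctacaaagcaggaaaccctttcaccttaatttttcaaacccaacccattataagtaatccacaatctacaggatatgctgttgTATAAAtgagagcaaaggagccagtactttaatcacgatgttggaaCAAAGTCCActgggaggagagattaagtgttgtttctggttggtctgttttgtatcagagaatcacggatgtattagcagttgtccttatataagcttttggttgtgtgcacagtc
Cyp2c66 (chr19:39113648-39113897, plus strand): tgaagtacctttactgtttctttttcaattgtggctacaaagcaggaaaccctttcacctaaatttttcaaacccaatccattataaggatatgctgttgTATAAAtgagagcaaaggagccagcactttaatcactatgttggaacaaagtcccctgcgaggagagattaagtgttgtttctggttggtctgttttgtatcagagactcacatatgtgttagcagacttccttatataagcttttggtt
Cyp2c55 (chr19:39006769-39007018, plus strand): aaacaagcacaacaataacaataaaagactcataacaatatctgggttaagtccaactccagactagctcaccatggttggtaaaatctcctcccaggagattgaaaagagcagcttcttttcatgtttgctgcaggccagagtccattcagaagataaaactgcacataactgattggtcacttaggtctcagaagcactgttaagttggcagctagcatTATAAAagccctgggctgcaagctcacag
Cyp2b10 (chr7:25897408-25897657, plus strand): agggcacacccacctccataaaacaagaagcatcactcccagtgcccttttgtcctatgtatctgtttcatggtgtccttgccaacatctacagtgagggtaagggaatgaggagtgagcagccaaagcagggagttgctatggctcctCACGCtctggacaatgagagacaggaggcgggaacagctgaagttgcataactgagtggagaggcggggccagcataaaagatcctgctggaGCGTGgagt
Cyp2s1 (chr7:25816526-25816775, minus strand): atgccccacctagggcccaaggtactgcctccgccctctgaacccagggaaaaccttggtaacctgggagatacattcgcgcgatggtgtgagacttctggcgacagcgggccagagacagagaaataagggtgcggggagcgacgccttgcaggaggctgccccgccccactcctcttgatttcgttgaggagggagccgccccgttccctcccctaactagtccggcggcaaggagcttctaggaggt
Cyp3a11 (chr5:145879855-145880104, minus strand): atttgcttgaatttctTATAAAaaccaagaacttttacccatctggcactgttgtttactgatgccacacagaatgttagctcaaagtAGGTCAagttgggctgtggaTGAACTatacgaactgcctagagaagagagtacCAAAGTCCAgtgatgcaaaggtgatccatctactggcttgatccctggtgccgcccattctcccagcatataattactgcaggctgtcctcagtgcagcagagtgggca

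Promoters were found for 42 of the 50 genes. Cyp2c23, Cyp2c54, Cyp2d12, Cyp2d13, Cyp2d22, Cyp2d34, Cyp2g1 and Cyp2u1 had none in the table. TATAAA was in 19 of the 42 (45.2%) against 12.4% of all 32851 promoters of this length, AGGTCA in 14 (33.3%) against 14%, and CAAAGTCCA in 6 (14.3%) against 0.384%. AGTTCA was in 2 (4.76%) against 11.8%, GCGTG in 6 (14.3%) against 28.2%, and TTGCGCAA, a C/EBP palindrome, in 0 of 42 against 0.164%. The promoters of Cyp2c65 and Cyp2c66 were identical at 74.2% of aligned columns, and CAAAGTCCA was found in that of Cyp2c65 alone. Counted from the gene start, TATAAA was at -29 in Cyp2c55 but at -162, -150 and -234 in Cyp2c65, Cyp2c66 and Cyp3a11, far from where a TATA box lies. Related genes share ancestry in these windows, and the shares were not tested.

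The reference channel moved with the tissue for some genes, which bears on the size of the ratios. The same reference RNA was on every array, yet the log2 Cy3 signal of Cyp2b10 averaged 9.42 ± 0.42 (SD, n = 5) on vehicle lung arrays and 5.98 ± 0.21 on vehicle liver arrays. Cyp2d10 went the other way, with 5.92 ± 0.14 on lung and 9.21 ± 0.34 on liver arrays. Cy3 was at least 1 log2 unit higher on liver than on lung arrays for 12 of the 43 genes (27.9%) and for 0.637% of all probes. In each of these 12, among them Cyp2c50, Cyp2c70, Cyp2d9, Cyp2d10, Cyp2d11, Cyp2d26 and Cyp2a12, the Cy5 signal was also higher in liver. The tissue difference was thus smaller in the ratio than in Cy5 alone for these genes. For Cyp2r1, whose Cy3 was at least 1 log2 unit higher on lung arrays, it was larger in the ratio (4.30) than in Cy5 (3.25). For Cyp2b10, liver minus lung was -0.88 ± 0.49 as a ratio and did not pass (adjusted p = 0.114), whereas in Cy5 it was -4.32 and passed. For Cyp2d11 the values were 4.19 and 8.18. Other genes had a Cy3 signal at background on nearly every array. Cyp3a11, Cyp2g1, Cyp2d34 and Cyp2b9 were well above background in Cy3 on 1 of 60 arrays and Cyp3a25 on 3. For Cyp3a11 liver minus lung was 9.055 as a ratio and 8.184 in Cy5. The source of the Cy3 signal was not tested. Liver and lung arrays lay on different slides, so tissue and slide cannot be told apart in these Cy3 differences. The counts of called genes on the Cy5 scale were 39, 38 and 12, but not of all the same genes. Cyp3a13 for liver minus forestomach (Cy5 adjusted p = 0.0778) and Cyp2c38 for lung minus forestomach (0.0777) lost their call, and Cyp2b10 for liver minus lung, Cyp2c66 for liver minus forestomach (0.0442) and Cyp2d12 for lung minus forestomach (0.0402) gained one.

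**Figure D2:**
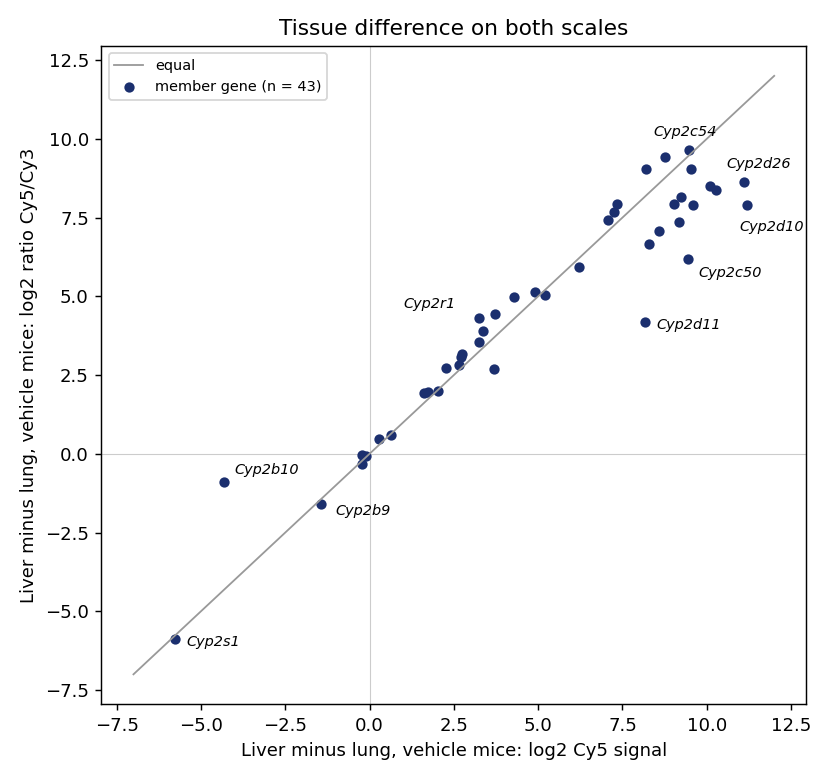
Liver minus lung difference of the 43 genes in vehicle mice (5 per tissue), as the log2 Cy5 signal (horizontal) and as the log2 ratio of Cy5 over Cy3 (vertical), with the line of equal values. Cyp2b10 lies at -4.32 and -0.88, Cyp2d11 at 8.18 and 4.19, and Cyp2s1 lies near the line.

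The question put by the dose groups is whether 28 days of BghiP changed these genes. None of them passed the test at any dose in any tissue. With limma, D1, D2 and D3 called 0 of the 20 lung genes, 0 of the 41 liver genes and 0 of the 23 forestomach genes, and 0% of all probes. At D3, 1 gene in lung, 3 in liver and 0 in forestomach had an unadjusted p under 0.05, and over all probes the shares were 4.81%, 12.1% and 1.5%. At D1 the numbers were 1, 0 and 2 (2.22%, 3.03% and 9.36% of all probes) and at D2 0, 2 and 2 (3.4%, 4.15% and 3.66%). For a slope on dose 0 genes were called, and 1 in lung, 4 in liver and 0 in forestomach had an unadjusted p under 0.05 (4.79%, 14.8% and 2.36% of all probes). The methods' residual shuffling also called 0 of the genes in each comparison, with 1, 3 and 0 under 0.05 at D3. Over all liver probes it called 0.0309% at D3 and 0.22% for the slope. The median change at D3 was 0.16 in lung, -0.06 in liver and 0.09 in forestomach, against 0.01, 0.00 and 0.01 over all probes. Without lung mouse 20, whose array carried hepatocyte markers, the lung median was -0.01. In forestomach the median was 0.42 at D1, with 19 of 23 genes higher, and 0.55 at D2, with 20 of 23 higher, against -0.02 and 0.03 over all probes. The glandular stomach marker sum, given with Cyp2c65 further on, was high in more D1 and D2 mice than D0 mice. The forestomach hepatocyte marker sum had medians of 12.3, 13.6, 13.1 and 10.5 at D0, D1, D2 and D3. Of the 8 hepatocyte markers, 3 were higher at D1, 7 at D2 and 1 at D3, with median changes of -0.11, 0.33 and -0.53. The part of either marker set in the medians of the P450 genes was not tested.

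**Figure D3:**
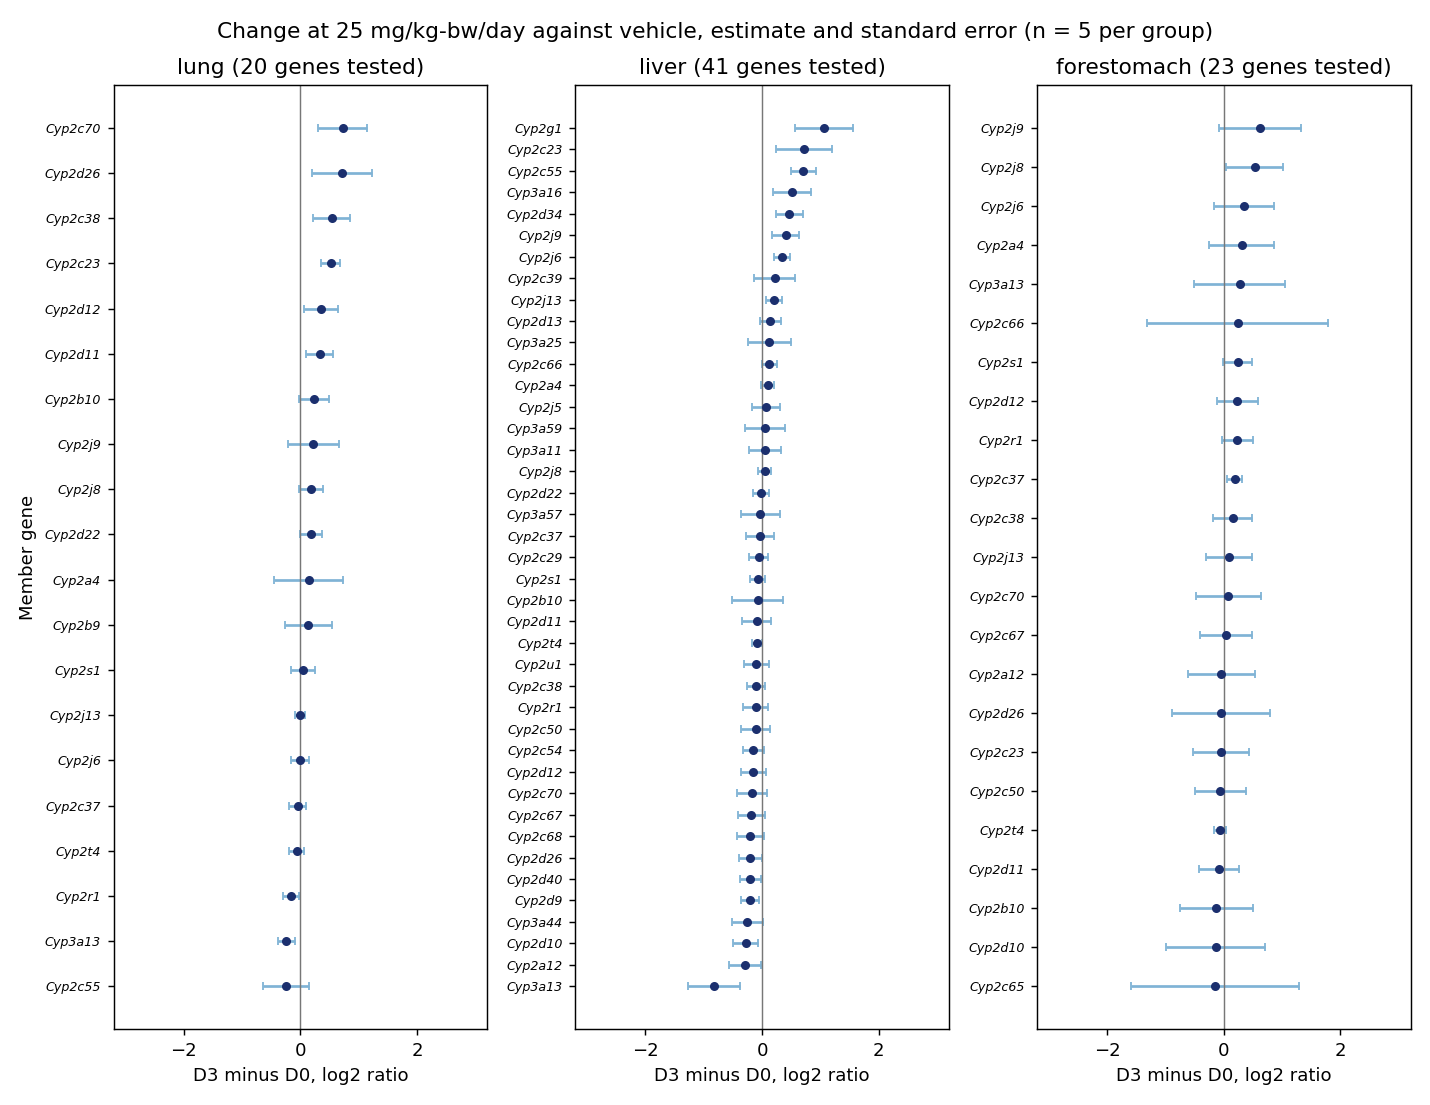
Estimated change at D3 against D0 (log2 ratio, point) with its standard error (bar) for each gene tested in lung, liver and forestomach, 5 mice per group. The bars of most genes cross or lie close to 0, and the widest are those of Cyp2c65 and Cyp2c66 in forestomach.

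The genes that xenobiotics typically induce had narrow intervals for some and wide intervals for others. Cyp2c29 in liver gave 9.19, 9.18, 9.17, 8.84 and 8.75 at D3 against 9.32, 8.69, 9.18, 9.24 and 8.99 at D0. The groups overlapped, and the 95% interval of the difference ran from -0.39 to 0.27. For Cyp3a11 the D3 values were 8.84, 9.18, 9.24, 8.57 and 9.49, the difference was 0.05 ± 0.27, and the interval ran from -0.52 to 0.61. Liver Cyp2b10 was more variable. It gave 5.46, 4.29, 2.94, 4.90 and 5.18 at D0, 3.80, 4.61, 3.63, 2.71 and 3.98 at D1, 4.21, 4.15, 3.21, 2.69 and 2.88 at D2 and 5.42, 4.88, 3.82, 4.39 and 3.87 at D3. The D2 mice were all below the D0 mean, with a difference of -1.13 ± 0.44 that did not pass (adjusted p = 0.995), and at D3 the difference was -0.08 with an interval from -0.98 to 0.83. In lung, where Cyp2b10 was bright, the D3 difference was 0.24 ± 0.26 with an interval from -0.30 to 0.78, and in forestomach it was -0.13 ± 0.63. With slide as a block the lung difference was 0.24 ± 0.08 and did not pass with limma (adjusted p = 0.17). Within the 5 lung slides it ran from -0.10 to 0.38, above 0 on 4. Cyp2c29 and Cyp3a11 were not tested in lung or forestomach, where their probes passed background on too few arrays.

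Cyp2c55 in liver came closest to a dose trend. This P450 oxidises arachidonic acid and is known as an Nr1i2 and Nr1i3 target. The values were 0.26, -1.08, -0.71, -0.34 and -1.10 at D0, -0.77, -0.31, -0.28, -1.14 and -0.43 at D1, -0.23, -0.10, -0.21, -0.11 and -0.56 at D2 and 0.49, 0.11, -0.10, 0.28 and -0.21 at D3. The groups overlapped through D0 mouse 1, the highest vehicle mouse. The D3 difference was 0.71 ± 0.22 and did not pass with limma (adjusted p = 0.209). Within the 3 liver slides it ran from 0.04 to 1.13. The slope on dose amounted to 0.77 over 25 mg/kg-bw/day and did not pass with limma (adjusted p = 0.0843), where 0.239% of all liver probes were called for a slope. With slide as a block the slope passed (adjusted p = 0.0469), as 1 of 41 genes (2.44%), where 2.62% of all probes passed. Without D0 mouse 1 it passed as well (adjusted p = 0.014), where 0.923% of all probes passed.

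Other liver genes with a low p at D3 were Cyp2j6, Cyp2g1 and Cyp2d34. Cyp2j6 was 0.34 ± 0.13 higher (adjusted p = 0.319) and 4 of 5 D3 mice exceeded the vehicle mean. Cyp2g1 gave 4.40, 1.10, 2.63, 2.71 and 3.11 at D0, 4.02, 2.59, 4.05, 3.58 and 1.71 at D1, 4.57, 5.00, 4.06, 3.69 and 4.68 at D2 and 4.78, 3.77, 4.32, 3.39 and 3.00 at D3. All D2 and D3 mice and 3 of 5 D1 mice were above the D0 mean, the groups overlapped, and neither difference passed (1.61 ± 0.50 at D2, adjusted p = 0.995 and 1.06 ± 0.50 at D3, adjusted p = 0.401). Without D0 mouse 2, the lowest vehicle mouse, the D3 difference was 0.64. Cyp2d34 was 0.46 ± 0.23 higher at D3 (adjusted p = 0.432). With mice left out in turn this difference ran from 0.26 to 0.57. D0 mouse 2 was again the lowest vehicle mouse, at 4.31 against 5.12 to 5.55. Cyp3a13 had the lowest estimate, -0.83 ± 0.45 (adjusted p = 0.474), and it rested on D3 mouse 18, at 0.73 where the other D3 mice gave 4.10, 4.43, 3.64 and 3.92. A second Cyp3a13 probe gave 2.48 in mouse 18, where the other D3 mice gave 1.59 to 2.41, and a D3 difference of -0.20 ± 0.19 (adjusted p = 0.711).

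**Figure D4:**
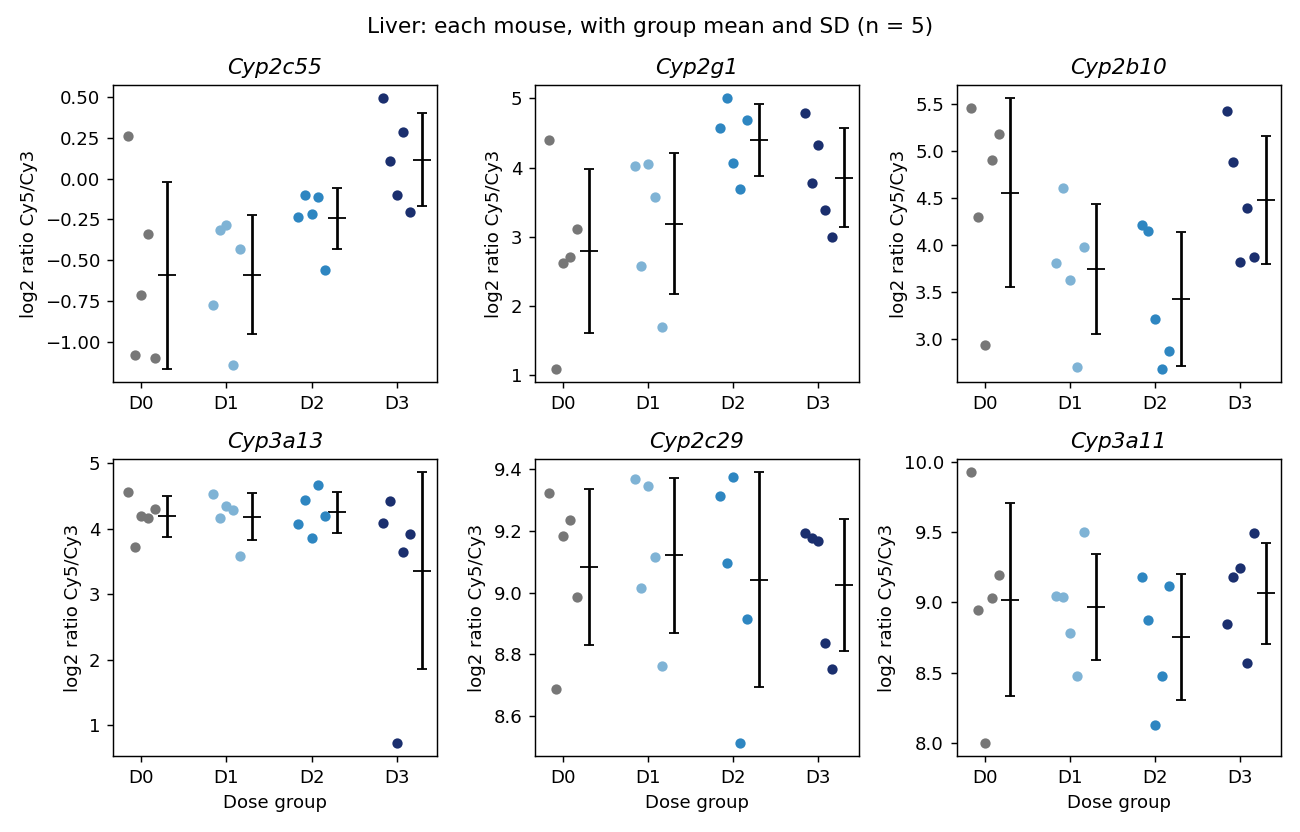
Log2 ratio of 6 genes in the liver of each mouse by dose group (points), with the mean and SD of 5 mice (bar beside the points). The Cyp2c55 mean is -0.59 at D0 and 0.12 at D3 with overlapping groups, Cyp2c29 and Cyp3a11 show no called difference, and 1 D3 mouse sets the low Cyp3a13 mean.

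In lung the lowest p at D3 was that of Cyp2c23, an arachidonic acid epoxygenase. It gave -0.04, -0.11, -0.33, -0.11 and -0.16 at D0 and 0.07, 0.17, 0.22, 0.20 and 1.18 at D3. Its probe was above background on 1 of 5 vehicle lung arrays and 8 of all 20, so most of these values are at background. It was the only one of the 20 lung genes whose D3 values all lay above the D0 values, as did 0.443% of all lung probes. The difference of 0.52 ± 0.17 did not pass (adjusted p = 0.881). The value of 1.18 is from mouse 20, on the array with hepatocyte markers, and leaving that mouse out gave 0.32, the lowest value over the mice left out in turn. Cyp2c70 and Cyp2c38 behaved alike, at 3.59 and 2.35 in mouse 20 against at most 0.51 and 0.24 in the other D3 lungs. Without mouse 20 their D3 differences were 0.10 and 0.09, against 0.73 and 0.54 with it.

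The forestomach values of Cyp2c65 and Cyp2c66, neighbours known from the gut epithelium, split the mice of each dose group. Cyp2c65 gave 0.45, 4.72, 4.64, 0.50 and 0.93 at D0, 0.27, 6.61, 4.44, 7.11 and 6.65 at D1, 0.44, 6.11, 5.37, 5.59 and 1.58 at D2 and 3.06, 0.17, 0.02, 5.04 and 2.20 at D3. Cyp2c66 gave 0.27, 5.17, 4.09, 0.33 and 0.91 at D0 and followed Cyp2c65 mouse by mouse. Both were above 4 in mice 2, 3, 7, 8, 9, 10, 12, 13, 14 and 19. In the same 10 mice the log2 summed Cy5 signal of 9 glandular stomach markers lay between 19.99 and 21.55, and all 9 were well above background. In the other 10 mice that sum lay between 9.30 and 18.4. At D1, 4 of 5 mice were in the first set, against 2 of 5 at D0, 3 at D2 and 1 at D3. The D1 differences were 2.77 ± 1.45 for Cyp2c65 and 3.28 ± 1.55 for Cyp2c66, and neither passed (adjusted p = 0.555 and 0.533). When all 60 arrays were fitted in 1 model, Cyp2c66 passed at D1 (adjusted p = 0.04), as did 2.1% of all probes. The part of the glandular stomach markers in these values was not tested.

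Cyp3a13 and Cyp2j9 also split the vehicle forestomachs, the other way round. Cyp3a13 gave 3.40, 1.02, 1.18, 4.44 and 4.64 at D0, with mice 2 and 3, which had the high glandular sums, low. Cyp2j9 gave 2.56, 0.55, 0.20, 2.61 and 3.96 in the vehicle mice. Both genes also went with the slide. Cyp3a13 ran from 0.84 to 1.96 on the slide with mice 3, 8, 13 and 18 and from 3.62 to 4.64 on that with mice 5, 10, 15 and 20, where glandular sums were both high and low. With slide as a term the SD of Cyp3a13 went from 1.33 to 0.693 and that of Cyp2j9 from 1.19 to 0.475, so that slide and marker sum both move with these values, and the part of each was not tested. Hepatocyte-type genes were seen in some forestomachs: Cyp2d10 reached 4.85 in D2 mouse 15, where the hepatocyte marker sum was highest, and was near 0 in mice 6, 11, 17 and 18. Cyp2d26 gave 4.24 in that mouse, and about as much, 4.08 and 4.09, in D1 mice 7 and 9. At D3 no forestomach gene had an unadjusted p under 0.05, and the lowest were those of Cyp2c37, Cyp2j8, Cyp2s1 and Cyp2j9.

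**Figure D5:**
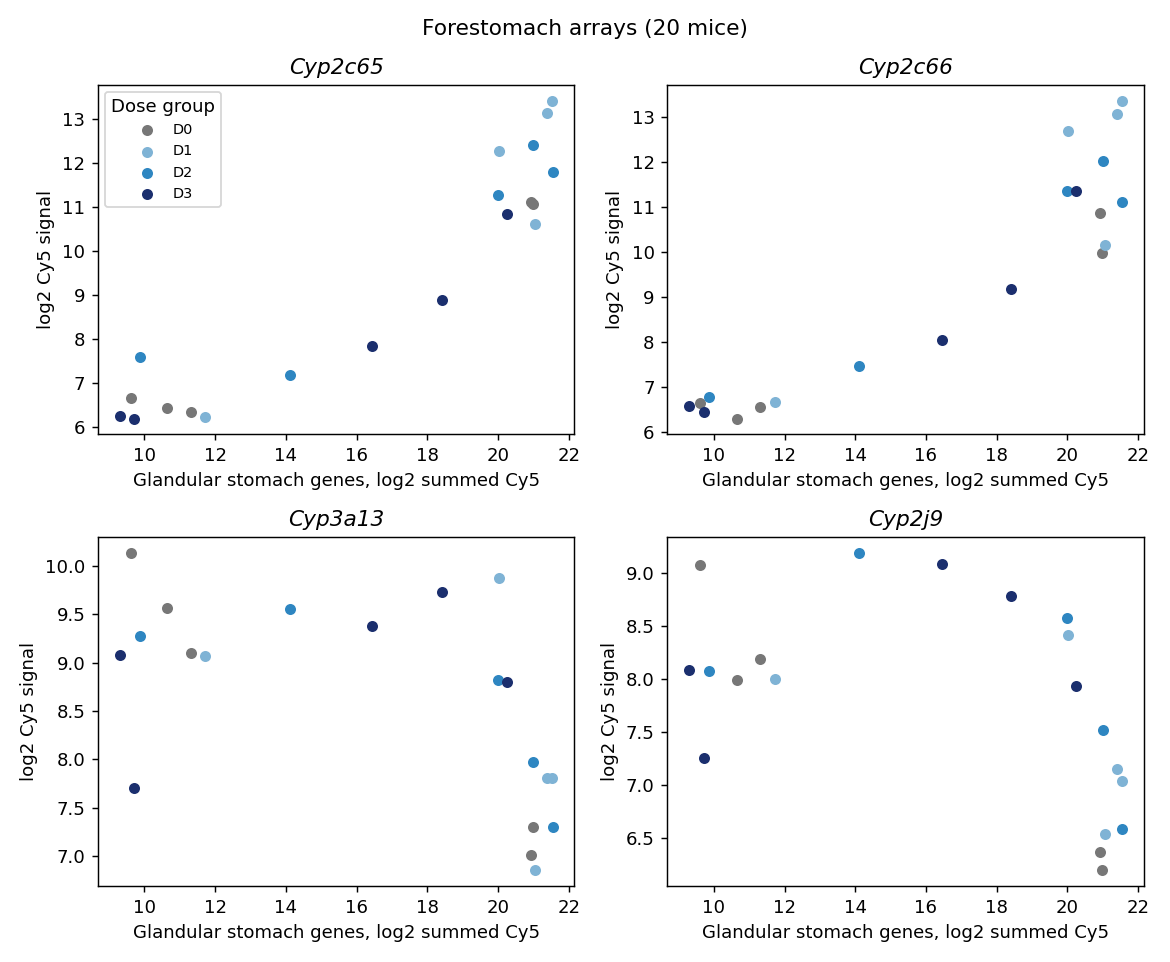
Log2 Cy5 signal of Cyp2c65, Cyp2c66, Cyp3a13 and Cyp2j9 on the 20 forestomach arrays against the log2 summed Cy5 signal of 9 glandular stomach markers, coloured by dose group. Cyp2c65 and Cyp2c66 are high on the arrays with a sum of about 20 or more, whereas Cyp3a13 and Cyp2j9 are spread over a range of signals there.

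No difference between tissues in the change at D3 passed the interaction test for the 43 genes (limma), and 0% of all probes were called. This fit held no term for mouse or slide, although the tissues came from the same mice. Unadjusted p was under 0.05 for Cyp2d34 and Cyp2g1 between liver and lung and between liver and forestomach, and for 0 genes between lung and forestomach. Both were above background on 1 of 20 lung arrays and 0 of 20 forestomach arrays, so their changes outside the liver are background values and these differences rest on the liver alone. The shares over all probes were 2.95%, 4.26% and 2.06%.

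The genes varied more between mice of a group than a typical probe. The pooled SD within dose groups had a median of 0.40 over the 41 liver genes against 0.185 over all liver probes, 0.38 over the 20 lung genes against 0.20, and 0.84 over the 23 forestomach genes against 0.29. In liver the widest were Cyp2g1 (0.90), Cyp2c23 (0.87), Cyp3a13 (0.80), Cyp2b10 (0.78) and Cyp3a25 (0.65), all at or above the 99.1 percentile of liver probes. Cyp2c23 was 4.63 in D0 mouse 3 and between 6.94 and 8.45 elsewhere. Vehicle mouse 2 was more than 1 log2 unit below each of the other vehicle livers in 6 of 41 genes (14.6%), which were Cyp3a25, Cyp3a57, Cyp3a59, Cyp2g1, Cyp2j9 and Cyp2c39, and in 0.456% of all probes. Cyp3a11 and Cyp3a16, which lie between Cyp3a57 and Cyp3a25 on chromosome 5, were not low in mouse 2, at 8.95 and 3.95 where the lowest of the other vehicle mice gave 8.00 and 3.42. Cyp3a44, also between them, was lowest in mouse 2, at -0.36 against 0.38 to 0.94. Near-identical paralogues in these clusters may share signal, and where a gene had several probes their signals could differ: the Cyp2c38 probes had a mean liver log2 Cy5 of 15.8 and 6.13, and the Cyp2j8 probes 12.6 and 5.78. The second Cyp2j8 probe was well above background on 0 arrays of every tissue, so it carries no signal to compare.

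Part of this variation went with the slide. Each lung slide held 1 mouse of every dose, and Cyp2b9 lay between 0.71 and 1.51 on the slide with mice 3, 8, 13 and 18 and between 2.56 and 2.99 on that with mice 5, 10, 15 and 20. The means of the other 3 lung slides lay in between. Cyp2j9 ran from 1.74 to 2.38 on the slide with mice 3, 8, 13 and 18 and from 3.83 to 4.00 on that with mice 5, 10, 15 and 20. On the former slide 34.9% to 44.3% of probes were well above background in Cy5 in lung and 21.3% to 27.1% in forestomach. On the latter these shares were 57.9% to 58.6% and 49.4% to 53.3%. The part of this in the gene values was not tested. With slide as a term the SD of lung Cyp2b10 went from 0.44 to 0.13, and it fell to under 0.5 of its size in 5 of 20 lung genes (25%) against 18.3% of lung probes and in 7 of 41 liver genes (17.1%) against 2.58% of liver probes. In forestomach it did so in 1 of 23 genes (4.35%) against 9.12% of probes. On 1 liver slide, with mice 2, 5, 10, 14, 15, 19 and 20, Cyp2c50, Cyp2c68 and Cyp2d11 were all below every mouse of the other 2 slides. Cyp2d11, for example, ran from 4.46 to 4.94 there and from 5.32 to 5.88 elsewhere. With slide as a block, the D1, D2 and D3 contrasts called 0 of the genes in each tissue, where 0.0677% of all probes were called at D3 in lung, 0.306% for the lung slope and 0.0927% at D3 in liver. In that fit the genes with an unadjusted p under 0.05 at D1, D2 and D3 were 1, 1 and 3 in lung (9.37%, 12.2% and 15.6% of all probes), 1, 2 and 5 in liver (4.24%, 6.83% and 17.9%) and 6, 3 and 1 in forestomach (18.1%, 9.43% and 6.44%). For the slope the lung had 5 (14.3%), the liver 6 (20.6%) and the forestomach 1 (8.29%).

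The genes that regulate or serve these enzymes were compared in the same way, and none was called at any dose. Of 14 regulators, 8 were higher and 2 lower in vehicle liver than in lung, with a median difference of 1.99, where 19% of all probes were higher and 25.4% lower with a median of -0.06. Nr1i3 was 6.17 ± 0.12, Hnf4a 6.35 ± 0.67 and Nr1i2 4.04 ± 0.23 higher, whereas Ahr, the receptor for planar aromatic hydrocarbons, was -1.06 ± 0.13 (adjusted p = 4.5e-10). Of 16 genes of electron transfer and haem turnover, 12 were higher and 2 lower, with a median of 1.23. Cpox, an enzyme of haem synthesis, was 3.38 ± 0.16 higher and cytochrome b5, Cyb5a, 2.33 ± 0.14 higher, while Por was -0.998 ± 0.20 and Hmox1, which breaks haem down, -1.02 ± 0.28. Of 11 other genes induced through Nr1i2 or Nr1i3, 8 were higher in liver, led by Ces2a at 8.80 ± 0.55 and Abcc2 at 6.49 ± 0.16, and Gadd45b and Abcb1a were lower. At D1, D2 and D3 limma called 0 of these genes in every tissue. With slide as a block Ephx1, the microsomal epoxide hydrolase, had the lowest adjusted p of them at D3 in lung (0.0244), and its change of 0.48 ± 0.11 was under 1.5-fold.

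Several of the genes differ between the sexes in mouse liver, and the animals were male. Cyp2d9, higher in males, was bright in every liver. Of the genes known as higher in females, Cyp2b13 passed the filter in no tissue, Cyp2b9 was not well above background on any vehicle liver array, and Cyp3a44 was so on 2 of 5. Cyp3a16 was well above background on all 5, with 9.46 in log2 Cy5 against 5.75 in lung, and Cyp2a4 was bright in all livers. All 8 genes known as higher in male liver were higher in liver than in lung and forestomach, as were 19% and 18.2% of all probes. At D3 these genes had a median change of -0.20 in liver, against 0.00 over all probes, and none was called. The 8 hepatocyte markers had a median of -0.16 there, with 0 of 8 higher.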

How the data were processed

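Per the labels and the study's methods, the deposited files are scanner output of two-colour Agilent arrays with intensity values in both channels, which the authors later normalised by LOWESS from median signals, background left in. The log2 value table deposited by the authors holds those ratios. The main values here were computed from the deposited median intensity by loess within each array, control spots at weight 0, and taken as the log2 ratio of Cy5 over Cy3. Non-uniform spots were left out, the remaining spots of a probe were averaged, and genes were named through RefSeq accessions. Tests used limma 3.58.1 in R 4.3.3 (lmFit and eBayes) with Benjamini-Hochberg adjustment over all probes that passed the filter, with each dose against D0 within a tissue and vehicle tissues in 1 model. The dose steps were tested on simulated data. In simulated liver D3 data on 25893 probes, 97.5% of probes raised by 1 log2 unit and 50% of those raised by 0.6 were called. For probes lowered by as much the shares were 92.5% and 42.5%. These probes were drawn from all liver probes tested, whose median SD was 0.185 against 0.404 in the 41 liver genes. The shares therefore do not carry over to the genes described here. The members and gene lists were chosen with earlier results of these data known. Genes were named by a fixed rule: the 8 largest called tissue differences in each direction, those above background on all 20 lung or forestomach arrays, the 4 lowest p at D3 in each tissue, slope or slide-block calls, the inducible Cyp2b10, Cyp2c29 and Cyp3a11, the 5 widest in liver, and those with a mouse far from its group. Only examples of the first are given.

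The same mouse gave all 3 tissues, as the labels' mouse numbers state, so tissues are paired. Deviations from group means correlated between lung and forestomach of a mouse with a median r of 0.209, between liver and lung with 0.054 and between liver and forestomach with -0.00144. The lung and forestomach arrays of a mouse lay on the same slide and its liver array on another, so mouse and slide cannot be told apart between lung and forestomach. All liver arrays lay on slides that held no lung or forestomach array, so tissue and slide cannot be told apart in any comparison with liver. With mouse as a replicate block, 38, 39 and 13 of the 43 genes differed between liver and lung, liver and forestomach, and lung and forestomach. Precision is limited by 5 arrays per group. Each dose had its own column on the slides, so dose and column cannot be told apart. The p-values measure the spread between arrays of different mice, in which mouse, slide and array are mixed. The main tissue test treated the arrays of a mouse as independent. Alternatives were normexp background correction (offset 50), processed signals, the deposited log2 ratios, Cy5 alone, no filter or a stricter one, all probes of a gene, trended robust eBayes, fewer arrays, slide and mouse blocks, residual shuffling, 1 model for all arrays and leaving out each mouse.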

Additional observations from a re-analysis of the deposited data

Results flagged for a closer look

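In 336 groups of 5 mice, which were every dose group of every gene tested in a tissue, 27 held a mouse far from the others, and chance gives about 1 in 20. Many of these came from the lung array of mouse 20 and the forestomach array of mouse 15. Genes on 1 array are not independent groups, and the share over all probes was not computed. Each value is a log2 ratio, with that of the nearest mouse in parentheses.

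In lung at D3, mouse 20 was far above the others for 8 genes. It gave 3.64 for Cyp2d26 (0.04), 3.59 for Cyp2c70 (0.51), 2.75 for Cyp2d11 (1.40), 2.47 for Cyp2d12 (0.94), 2.35 for Cyp2c38 (0.24), 1.39 for Cyp2d22 (0.52), 1.18 for Cyp2c23 (0.22) and 0.44 for Cyp3a13 (0.03). The hepatocyte marker sum on that array was 15.1, against at most 11.0 on the other lung arrays. In forestomach at D2, mouse 15, with the highest forestomach hepatocyte sum (15.9), was far above the others for 5 genes. It gave 4.03 for Cyp2a12 (0.70), 3.92 for Cyp2c70 (1.10), 3.30 for Cyp2c67 (0.56), 3.27 for Cyp2c50 (0.77) and 2.52 for Cyp2d12 (0.50). The part of hepatocyte RNA in these values was not tested. Forestomach Cyp2a4 was highest in D0 mouse 2, at 1.78 (0.50), on the array with alveolar type 2 markers.

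In liver, D0 mouse 2 was far below the others for Cyp3a25 at 7.52 (9.61), Cyp3a57 at 6.01 (7.85) and Cyp2j9 at 1.48 (2.70). Liver Cyp3a13 was 0.73 in D3 mouse 18 (3.64), Cyp3a16 was 4.27 in D3 mouse 19 (4.92) and Cyp2a4 was 8.01 in D1 mouse 8 (7.72). In lung, Cyp2s1 was 3.08 in D3 mouse 17 (3.38), Cyp2d22 was 0.14 in D1 mouse 8 (0.46) and Cyp2j13 was 0.08 in D2 mouse 11 (0.28). In forestomach, Cyp2c23 was 1.35 in D3 mouse 19 (0.14), Cyp2c38 was 0.37 in D3 mouse 18 (0.97), Cyp2d26 was -0.18 in D0 mouse 5 (1.00) and Cyp2t4 was -0.02 in D1 mouse 10 (0.25).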

How the results depend on the processing

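Across the alternatives, 392 counts of called genes stayed within 1.5 times the reported count and 3 did not. For every dose, slope and interaction comparison the reported count was 0, so a count that stayed was again 0. Only the 3 vehicle tissue comparisons had reported counts above 0. With slide as a block the liver slope called 1 gene, Cyp2c55, and leaving out each mouse in turn gave 0 to 1, the 1 being without D0 mouse 1. With all 60 arrays in 1 model, forestomach D1 called 1 gene, Cyp2c66. Among D3 values that were not called in any setting, signs turned as follows. Liver Cyp2c29 was 0.045 after normexp and 0.27 in Cy5 alone, and ran from -0.16 to 0.01 with mice left out, at 0.002 without mouse 1 and 0.01 without mouse 20. Forestomach Cyp2c37 was -0.037 with processed signals. Liver Cyp3a11 was -0.074 with slide as a block and ran from -0.21 to 0.27 with mice left out. Liver Cyp2b10 ran from -0.48 to 0.15 and forestomach Cyp2b10 from -0.40 to 0.42 with mice left out, and the latter was 0.42 without the arrays carrying markers of a second tissue. The cause was not tested.

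The named tissue differences kept their direction in all settings run. Over these settings 485 values kept their call and 25 lost it, all of Cyp2c65, Cyp2c38 and Cyp2d11. Among the other differences, Cyp2j5 lung minus forestomach, not called, was -0.12 as a ratio and 0.15 in Cy5, Cyp3a13 liver minus forestomach lost its call in Cy5 (adjusted p = 0.0778), and the mouse block added calls of Cyp2j9, Cyp2c55 and Cyp2c66. For lung minus forestomach the adjusted p of Cyp2d11 was 0.0547 with mouse as a block, that of Cyp2c38 was 0.0545 with no filter, and that of Cyp2c65 was 0.134 without the arrays carrying a second tissue's markers. For liver minus forestomach, that of Cyp2c65 was 0.0593 with slide as a random block and 0.131 without those arrays.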
